A study of Homo sapiens with 2 samples.

Results

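The background methylation of the H9 genome was read in autosomal bins of 1 Mb, using only CpGs that lay outside every called peak of open chromatin. Bins were counted from position 0 of each chromosome, and a bin was kept where each replicate held at least 2000 CpG reads outside peaks. Of 2784 bins with a CpG, 2575 (92.5%) were kept. All 209 bins left out fell short in replicate 1, and 96 of them also in replicate 2. A bin's methylation is the number of methylated CpG reads divided by all its CpG reads outside peaks, so that a deeply read CpG counts for more than a thinly read one.

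The libraries were 2 replicates of a single group: untreated H9 human embryonic stem cells, an established pluripotent line grown without feeder cells on Matrigel in mTeSR medium. They were made by ATAC-Me, in which the transposase Tn5 cuts accessible chromatin and the fragments are then converted so that methylated and unmethylated cytosines can be told apart. The labels leave unsaid if the 2 were grown apart, so their SD may hold technical variation only, and there is no second line or condition. As a check of the label, 7 of 8 pluripotency markers had a peak within 1000 bp of a gene end (POU5F1, 1007160 bp from the nearest peak, did not), as did 2 of 4 fibroblast markers (COL1A1 and COL1A2) and 0 of 3 blood markers. Why no peak lay nearer to POU5F1 was not tested, and the distance alone does not show that the gene is closed.

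In mammals most CpGs are methylated, and methylated cytosine is lost over evolution by mutation, so that CpGs are sparse over most of the genome. CpG islands, short stretches where CpGs stayed dense, are usually unmethylated and mark the promoters of housekeeping and developmental genes. In embryonic stem cells the islands of silent developmental regulators, the HOX clusters among them, stay unmethylated under Polycomb repression, while the rest of the genome is highly methylated. Reads from outside peaks in ATAC-Me come from chromatin that Tn5 cuts less often per base.

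Promoters from the bins of lowest methylation are printed here because they show the kind of sequence those low values came from. In 4 such bins the promoter was taken that lay wholly outside peaks and had the most CpG reads in the shallower replicate, among the members of the gene group found there (HOXD11 and HOXD13 tied, and the one deeper in replicate 2 was taken). Each is 300 bases from RefSeq (GRCh38.p14), from 250 bases before the start of the gene to 50 after it, written 5′ to 3′ on the gene's strand, with each CG in capitals.
HOXD11: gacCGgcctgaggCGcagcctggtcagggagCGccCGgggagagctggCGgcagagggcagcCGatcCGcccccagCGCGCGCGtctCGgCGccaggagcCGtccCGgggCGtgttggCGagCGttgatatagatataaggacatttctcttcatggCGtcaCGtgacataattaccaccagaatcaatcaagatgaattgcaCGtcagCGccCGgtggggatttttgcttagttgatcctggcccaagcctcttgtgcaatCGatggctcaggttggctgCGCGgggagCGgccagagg
HOXA4: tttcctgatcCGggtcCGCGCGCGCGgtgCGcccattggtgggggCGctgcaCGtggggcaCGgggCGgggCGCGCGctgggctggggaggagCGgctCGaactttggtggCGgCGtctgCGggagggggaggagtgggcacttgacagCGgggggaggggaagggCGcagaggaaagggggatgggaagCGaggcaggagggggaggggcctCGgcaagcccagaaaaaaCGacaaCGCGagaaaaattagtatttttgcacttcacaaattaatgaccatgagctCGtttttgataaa
H3C4: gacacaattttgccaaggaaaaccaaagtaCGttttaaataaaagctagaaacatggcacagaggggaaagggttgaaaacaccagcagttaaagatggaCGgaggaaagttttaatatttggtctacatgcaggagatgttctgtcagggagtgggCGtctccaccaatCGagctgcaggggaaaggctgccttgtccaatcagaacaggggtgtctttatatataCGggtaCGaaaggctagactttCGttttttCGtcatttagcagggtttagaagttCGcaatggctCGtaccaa
NKX2-8: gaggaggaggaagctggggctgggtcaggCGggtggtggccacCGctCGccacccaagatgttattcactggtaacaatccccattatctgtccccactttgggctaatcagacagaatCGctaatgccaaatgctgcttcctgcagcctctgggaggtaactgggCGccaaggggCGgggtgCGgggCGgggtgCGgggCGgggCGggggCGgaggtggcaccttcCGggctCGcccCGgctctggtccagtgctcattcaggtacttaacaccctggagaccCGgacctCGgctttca
The HOXD11 promoter lies at chr2:176107030-176107329 on the plus strand and is 9123 bp from the nearest peak. It holds 27 CGs, a number reached by 37.0% of the 21156 promoters in the table, whose median is 21. None of its 111 CpG reads in replicate 1 was methylated (95% Wilson interval 0 to 3.35%), and 0.585% of 171 were in replicate 2 (0.103 to 3.24%). The HOXA4 promoter (chr7:27130708-27131007, minus strand, 12705 bp from a peak) also holds 27 CGs and was 0.714% methylated over 140 reads and 4.04% over 322. The NKX2-8 promoter (chr14:36582565-36582864, minus strand) holds 17 CGs and was 0% methylated over 124 reads and 1.69% over 178. The H3C4 promoter (chr6:26197237-26197536, minus strand) holds only 10 CGs, and none of its 41 and 97 reads was methylated, which allows up to 8.57% and 3.81%. All 4 promoters were read as almost free of methylation. They were picked from bins of lowest methylation, outside peaks and by depth, so these levels describe the choice.

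The median bin was 63.8% methylated in replicate 1 and 74.3% in replicate 2 (mean 69.1% ± 7.40, SD, n = 2). From the 5th to the 95th percentile the bins ran from 45.6% to 83.3% in replicate 1 and from 58.0% to 87.5% in replicate 2. The lowest bin stood at 23.4% and 28.4%, and the highest values were 88.3% and 91.8%. Below 50% in both replicates lay 33 bins, and above 85% in both lay 65. The distribution had 2 humps in each replicate: in replicate 1 the fullest classes were 60 to 62% with 190 bins and 82 to 84% with 105, with 75 bins in each class from 76 to 80%. In replicate 2 the corresponding classes were 74 to 76% with 226 bins and 86 to 88% with 172. The upper hump was poor in genes: of 294 bins at 80% or more in replicate 1 and 85% or more in replicate 2, 166 held no protein-coding gene. Over all 2575 bins 265 (10.3%) held none.

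**Figure D1:**
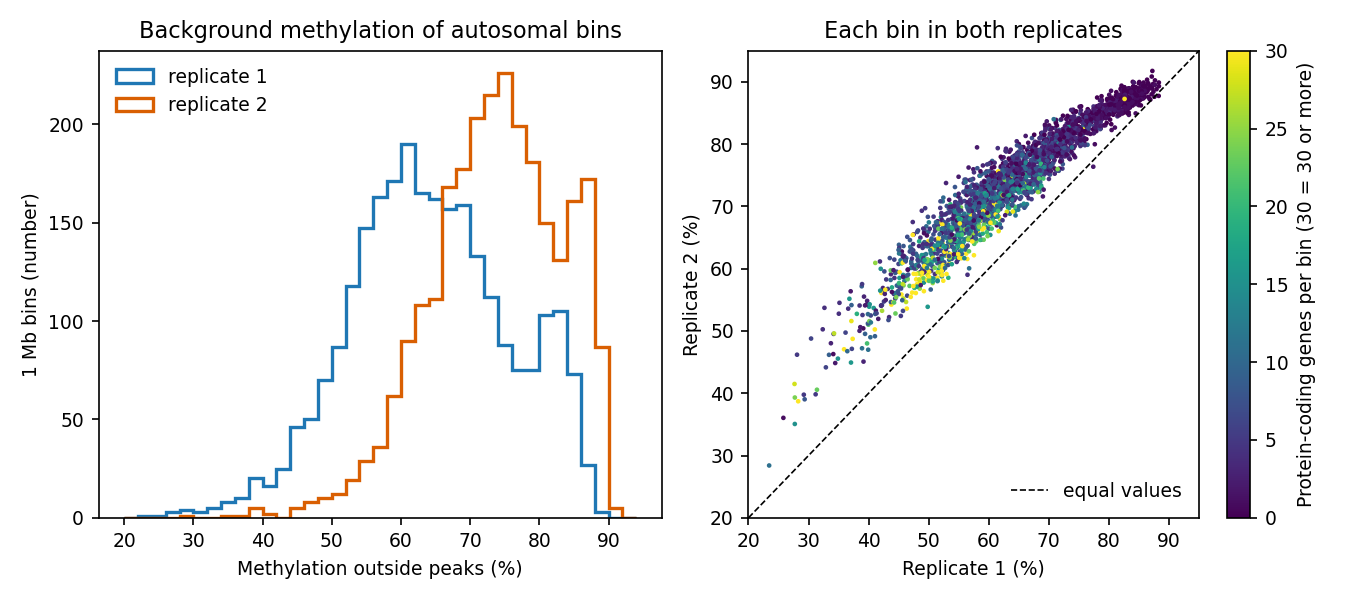
Left, number of 1 Mb autosomal bins (y) by methylation of CpG reads outside peaks in percent (x, classes of 2 points) for replicate 1 and replicate 2. Right, each of the 2575 bins as a point, replicate 1 against replicate 2 in percent, coloured by protein-coding genes per bin; 2573 bins lie above the dashed line of equal values, and bins with few genes gather at the top right.

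Replicate 2 read higher than replicate 1 in 2573 of 2575 bins, by a median of 9.43 points. The shift was not even along the scale, with a median of 11.6 points in the 545 bins (21.2%) in the lowest quartile in both replicates and 5.46 points in the 578 (22.4%) in the highest quartile in both. The order of the bins was nearly the same in both (Spearman's rho 0.962, Pearson's r 0.961 over 2575 bins, a description, since neighbouring bins are not independent). The 10 lowest bins of replicate 1 had a median of 39.2% in replicate 2, against 74.3% for all bins, and 8 of them were also among its 10 lowest. At the top, where values lie close together, 3 of the 10 highest were shared, and the 10 highest of replicate 1 had a median of 89.4% in replicate 2. Kept bins held 98.7% and 98.5% of the autosomal CpG reads outside peaks, with a median of 4671 and 9282 reads per bin. The median 95% Wilson interval of a bin was 2.70 points wide in replicate 1 and 1.76 in replicate 2; intervals cover counting error only. Near the threshold, the 58 bins with 2000 to 2200 reads in replicate 1 had medians of 82.6% and 87.4%, and the 33 bins with 1800 to 2000 reads had 82.9% and 87.5%. The 209 bins left out had a median of 0 protein-coding genes and 1 peak, and held 620 such genes in all.

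Bins with more genes, more CpGs and more peaks were less methylated outside those peaks. The quintile of bins with the most protein-coding genes (11 to 64 per Mb) had a median of 56.6% and 66.7%, against 78.8% and 84.9% for the quintile with 0 or 1 gene, a difference of -20.3 points ± 2.85 (SD, n = 2). By CpGs per Mb the highest quintile (12884 to 40673) was at 58.2% and 67.3% and the lowest (4211 to 6319) at 78.6% and 84.9%, a difference of -19.0 points ± 2.01. By peaks per Mb the highest quintile (25 to 98 summits) was at 56.7% and 66.7% and the lowest (1 to 9) at 78.8% and 85.1%, a difference of -20.3 points ± 2.58. Each difference was several times the spread between replicates and had the same sign in both. With 2 replicates an exact permutation test of the sign cannot give a p below 0.5, so none is given here. Across bins Spearman's rho with methylation averaged -0.66 for genes (-0.31 where gene density is the share of the bin covered by gene bodies), -0.62 for CpGs and -0.60 for peaks, and the largest step lay between the first and the second quintile.

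The 3 densities went together (rho 0.74 between genes and CpGs, 0.75 between genes and peaks, 0.68 between CpGs and peaks), so each was read within quintiles of another. Among bins of like CpG density, those with many genes were lower than those with few in all 5 quintiles, by mean differences of -9.12 to -6.34 points. In the quintile with the most CpGs, bins with a median of 27 genes had 53.6% and 63.2%, and bins with a median of 7 genes had 62.1% and 71.2%. Among bins of like gene density, CpG density made a smaller difference at the gene-rich end: -8.07 points ± 3.14 in the quintile with the fewest genes and -2.63 points ± 2.98 in the quintile with the most, the latter within the spread between replicates. Peak density within quintiles of CpG density gave -7.89 to -3.82 points. The number of reads in a bin moved with its methylation as well (mean rho -0.70), and its part in these differences was not tested beyond the limits that follow. With a minimum of 5000 reads per bin, which keeps 1156 bins and drops most of the gene-poor ones, the gene difference was -7.50 points and the CpG difference 3.49 in replicate 1 and -1.59 in replicate 2 (mean 0.95 ± 3.59). With CpGs of at least 3 reads the gene difference was -4.51, the peak difference -0.023 and the CpG difference 2.40.

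**Figure D2:**
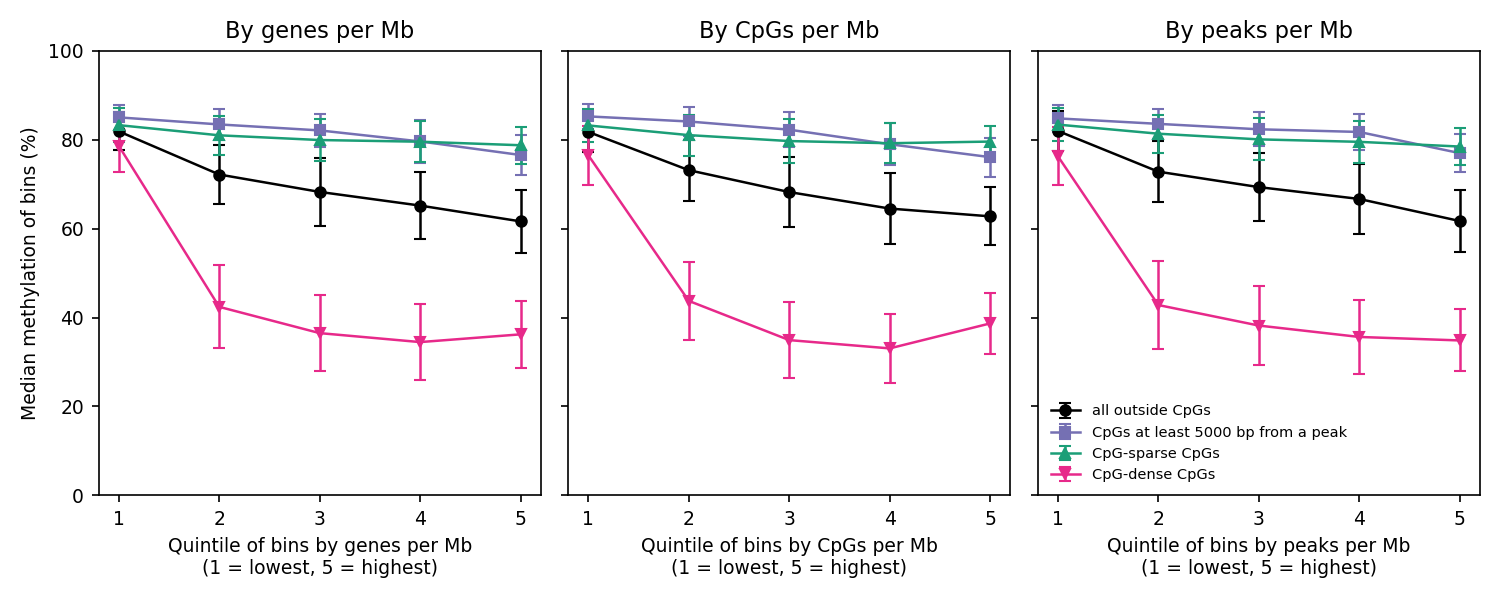
Median methylation of bins in percent (y, mean of 2 replicates, bars ± 1 SD) across quintiles of bins (x) by protein-coding genes, CpGs and peaks per Mb, for all CpGs outside peaks, those at least 5000 bp from a peak, and those in CpG-sparse or CpG-dense sequence. In the CpG-sparse class the lines are nearly flat after the first quintile, and in the CpG-dense class they drop from above 76% in the first quintile to below 45% in the second.

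CpGs in dense and in sparse sequence had very different levels. CpGs with at least 8 CpGs within 100 bp on either side (itself included), called CpG-dense here, were 19.7% of the CpGs outside peaks but 36.1% and 33.0% of the reads. They were 33.4% and 44.6% methylated (39.0% ± 7.91, SD, n = 2), against 76.8% and 82.6% (79.7% ± 4.12) for the remaining, CpG-sparse, ones. The share of a bin's reads at CpG-dense CpGs ran from 1.19% to 82.0% in replicate 1 and had a rho of -0.88 with the bin's methylation in both replicates. This share is part of what the bin value is made of, so the relation is a description of its make-up. Counting CpG-sparse CpGs alone, the difference between the outer quintiles by gene density shrank to -4.54 points, and the gap between the 5th and 95th percentiles from 33.6 to 11.3 points.

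Dense CpGs were not low everywhere. In bins in the highest quartile in both replicates (578 bins) CpG-dense CpGs had medians of 79.1% and 85.6%, close to the 81.1% and 86.2% of CpG-sparse CpGs in the same bins. In bins in the lowest quartile in both (545 bins) CpG-dense CpGs had medians of 20.5% and 29.8%, and CpG-sparse ones 73.5% and 80.4%. The bins were sorted by the value that these 2 classes make up, so the figures describe its make-up. The share of reads at CpG-dense CpGs differed as well, with medians of 13.3% and 12.2% in the highest and 46.0% and 37.9% in the lowest.

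The distance to the nearest peak graded both classes. Within 500 bp of a peak, CpG-sparse CpGs were 45.6% and 51.9% methylated. From 1 to 2 kb away they had 73.8% and 80.2%, and from 5 to 10 kb 80.3% and 84.7%, beyond which they stayed between 80.7% and 85.5%. CpG-dense CpGs started at 9.59% and 11.7% within 500 bp, had 53.5% and 64.3% at 5 to 10 kb, and reached 60.9% and 71.3% beyond 100 kb. At every distance the dense class was lower than the sparse class in both replicates, and the gap beyond 100 kb still exceeded the spread between replicates (66.1% ± 7.34 against 82.9% ± 2.09).

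**Figure D3:**
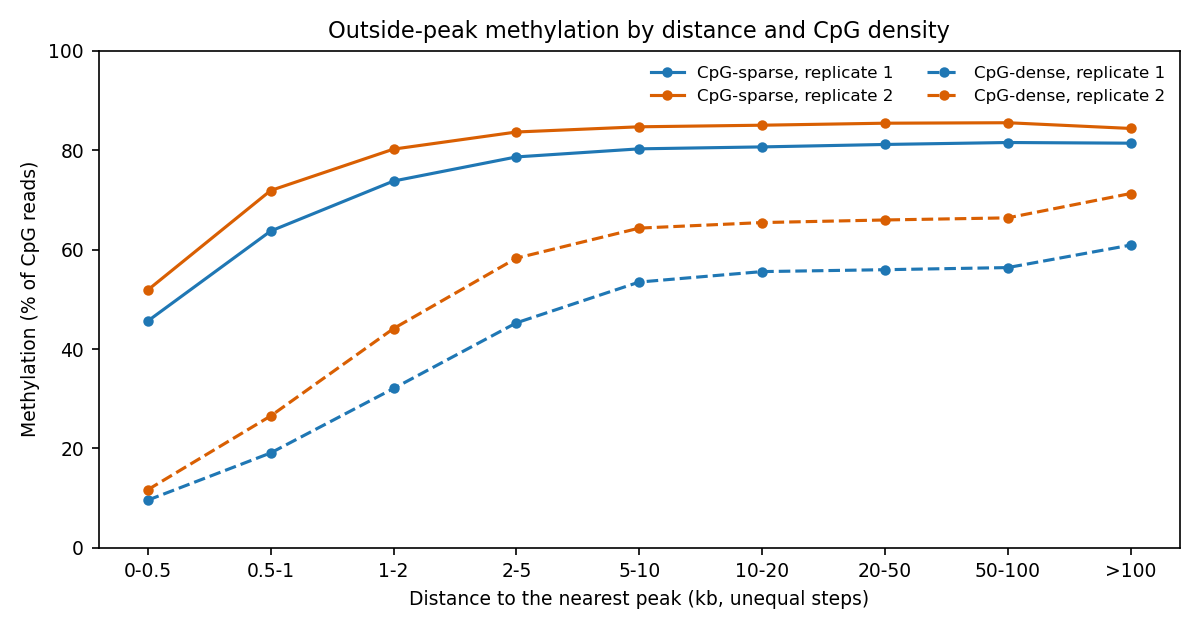
Methylation in percent of CpG reads (y) by distance of the CpG to the nearest peak in kb (x, classes of unequal width), for CpG-sparse (solid) and CpG-dense (dashed) sequence in both replicates. The sparse lines level off near 80% and 85% from 5 kb on, and the dense lines stay below them at every distance.

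Gene bodies, the spans from one end of a protein-coding gene to the other, were less methylated than the intergenic CpGs of the same bin when all CpGs outside peaks were counted. In 2158 bins with at least 500 reads in bodies and in intergenic sequence in each replicate, bodies had a median of 57.2% and 68.3% and intergenic CpGs 68.0% and 77.4%, with a median difference of -8.01 points ± 1.74; bodies were lower in both replicates in 1563 bins and higher in 409. The sign turned once CpG-dense sequence and the surroundings of peaks were set aside. At CpG-sparse CpGs at least 5000 bp from a peak, bodies had 82.3% and 86.3% and intergenic CpGs 79.9% and 84.5%, a difference of 2.31 points ± 0.49, with bodies higher in both replicates in 973 of 1556 bins and lower in 257. CpG-dense CpGs at least 5000 bp from a peak could be compared in 152 bins and were 9.25 points ± 1.18 higher in bodies. Methylation of transcribed gene bodies is a known feature of mammalian genomes; transcription was not measured in these libraries.

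Bins within 5 Mb of a chromosome end had medians of 61.1% and 70.2% (227 bins), against 64.1% and 74.8% for the interior, a difference of -3.82 points ± 1.23. They held more CpGs (median 15358 against 8352) and more reads at CpG-dense CpGs (45.1% and 39.9% against 28.7% and 22.6%). At CpG-sparse CpGs the mean difference was 0.29, with opposite signs in the replicates (1.03 and -0.44). With a minimum of 5000 reads per bin it was 1.92. At CpGs at least 5000 bp from every peak it was larger and negative, at -5.17 and -5.28. Among the 22 autosomes, chromosome 19, the one with the most genes per bin (median 27), had the lowest median at 53.9% and 62.2%. Chromosomes 17 (58.6% and 67.9%) and 15 (58.3% and 70.2%) came next by the mean of the replicates, and chromosome 4 (67.9% and 77.6%), with a median of 3 genes per bin, was highest. Neighbours in this order differed by less than the SD between replicates, which was 5.82 to 8.84 points and came mainly from the shift that all bins share.

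Of the 10 lowest bins, 8 held HOX genes, other developmental regulators or histone genes. HOX genes, which set position along the body axis, lay in 3 of them, replication-dependent histone genes in 3, and HOX or other developmental transcription factors in 5. Among all 2575 bins, HOX genes lay in 5, these histone genes in 6 and the other developmental factors in 94, with some bins in common. The lowest bin of all, chr2:176000001-177000000, holds HOXD1 to HOXD13, EVX2 and MTX2, and read 23.4% over 8385 reads and 28.4% over 16916 (25.9% ± 3.51). The third lowest, chr7:27000001-28000000, holds the HOXA genes with EVX1, JAZF1, HIBADH and TAX1BP1, and read 27.7% and 35.1%. The HOXB bin, chr17:48000001-49000000, with SKAP1, TTLL6 and CALCOCO2 beside the cluster, read 31.4% and 40.6%. All 3 were at least 30 points below the median bin in each replicate.

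Histone genes for the replication of chromatin in S phase lay in the lowest bins of chromosome 6. The bin chr6:26000001-27000000, with 32 of these genes, ZNF322, the butyrophilin genes BTN2A1 and BTN3A2 and 44 tRNA genes, read 28.3% and 38.7%. Its neighbour chr6:27000001-28000000, with histone genes such as H2BC12 and H1-5, ZNF184, ZNF391, PRSS16 and 56 tRNA genes, read 27.7% and 41.5%. The bin chr1:149000001-150000000, with histone genes, NOTCH2NLC and NBPF19, copies of recently duplicated families, and OTUD7B, read 27.7% and 39.3%. Reads in duplicated families may belong to another copy, and how such reads were placed is not given in the sources used here.

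Further developmental regulators made up the next bins. The bin chr14:36000001-37000000 holds NKX2-1, needed for lung and thyroid, with NKX2-8, PAX9, MBIP and SLC25A21, and read 29.2% and 39.8%. The bin chr20:21000001-22000000 holds NKX2-2, NKX2-4 and PAX1 with KIZ and XRN2, and read 31.2% and 39.8%. The other two, the sixth and the second lowest, hold none of these genes. The bin chr5:181000001-182000000, at the end of its chromosome, holds OR2V1, OR2V2 and OR4F3, which are olfactory receptors, with BTNL9, TRIM41, TRIM52 and 17 tRNA genes, and read 29.4% and 39.0%. The second lowest of all, chr9:62000001-63000000, holds LOC107987020 as its 1 protein-coding gene. It read 25.8% and 36.1% and rested on 2208 and 3273 reads, near the minimum, and its read placement is subject to the same limit as that of duplicated families.

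In all 10 the CpG-dense CpGs held most of the reads in each replicate (58.9 to 69.9% and 50.8 to 64.5%), and these were 5.78 to 18.2% and 7.31 to 29.8% methylated. Their CpG-sparse CpGs had 42.8 to 65.3% and 56.4 to 74.0%, below the medians of 77.4% and 83.6% over all bins. At CpGs at least 5000 bp from every peak the HOXD bin still read 29.0% and 33.7%, the HOXA bin 30.6% and 39.4% and the HOXB bin 31.7% and 40.9%, and the histone and NBPF19 bin of chromosome 1 was as low at 30.1% and 43.2%. The remaining 6 read higher there in both replicates, up to 66.2% and 74.8% in the NKX2-1 and PAX9 bin.

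Methylation in 50 kb windows was read in 5 of the 10 lowest bins, and in the HOXD, HOXA, chromosome 14 and chromosome 20 bins the low values lay in blocks. In the HOXD bin, the window from 50 to 100 kb with EVX2 and HOXD13 was 5.30% and 5.40% methylated, the next with HOXD8 to HOXD12 was 5.64% and 7.22%, and the third with HOXD1, HOXD3 and HOXD4 was 5.45% and 8.73%. These 3 windows of 20 took 67.8% and 67.0% of the bin's reads, and the remaining 17 had medians of 77.2% and 81.0%. The HOXA bin had 3 windows below 15% in both replicates, holding 60.8% and 58.3% of its reads, and they contain HOXA2 to HOXA13 and EVX1. In the chromosome 14 bin the windows of NKX2-1 (3.53% and 6.95%) and PAX9 (6.84% and 10.1%) took 47.5% and 42.1% of the reads, and the others had medians of 73.5% and 82.1%. The histone bin of chromosome 6 differed: its windows had medians of 30.7% and 39.2%, 1 window was below 15% in both, and low values reached from the start of the bin to 800 kb. Its histone genes lay in the first 300 kb, so the low values reached beyond them. The window below 15%, from 750 to 800 kb, held no protein-coding gene and rested on 156 and 202 reads.

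**Figure D4:**
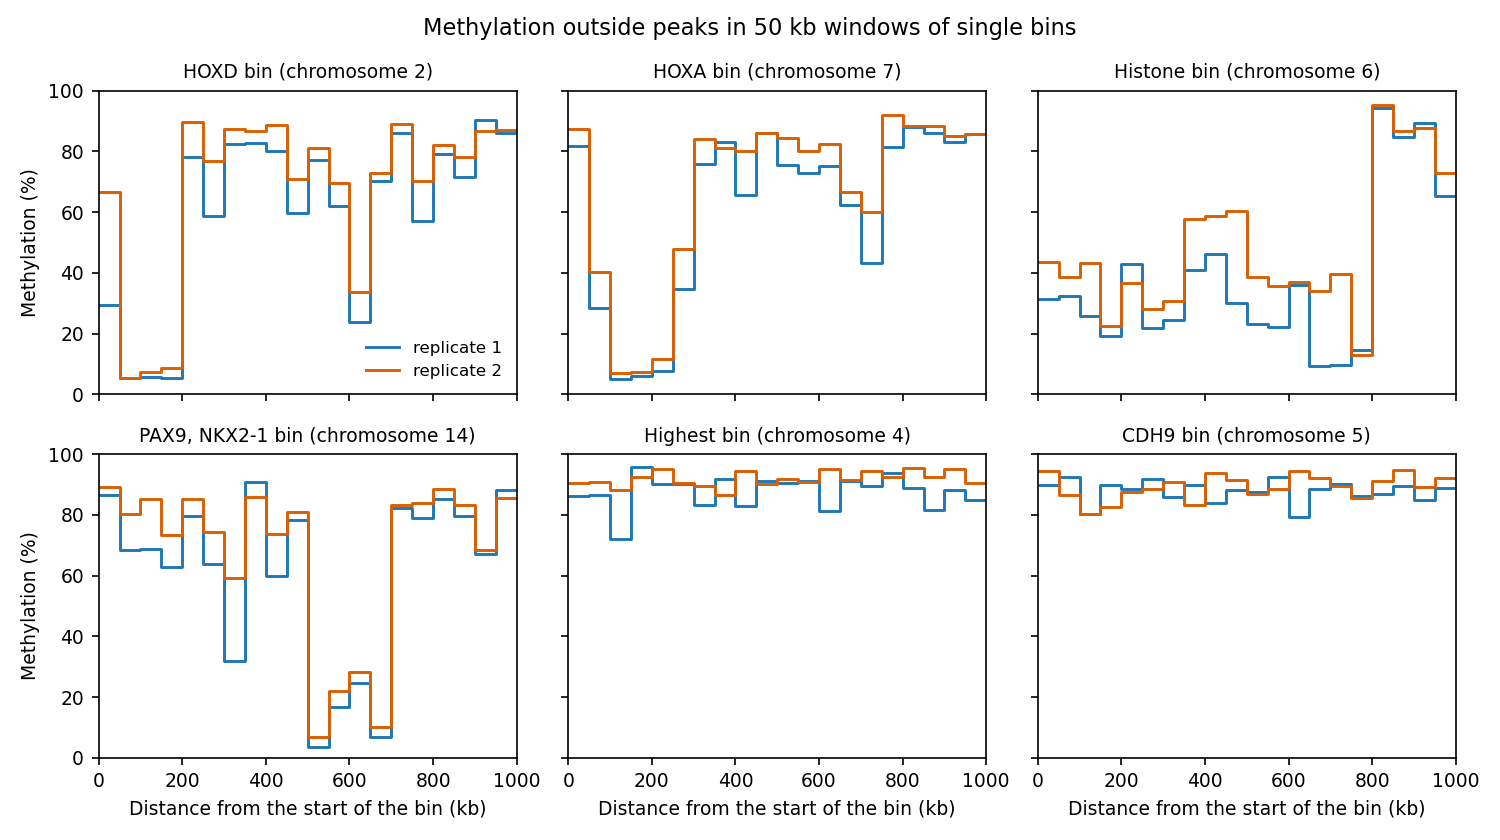
Methylation in percent of CpG reads outside peaks (y) in 50 kb windows along 6 single bins, by distance from the start of the bin in kb (x), in both replicates. The HOXD, HOXA and chromosome 14 bins show narrow blocks below 15% within flanks mostly above 60%, the histone bin is low over most of its length, and the 2 high bins stay above 70% throughout.

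The 10 highest bins were gene deserts. They read 86.4 to 88.3% in replicate 1 and 88.8 to 91.8% in replicate 2, and they held 2 to 7 peaks each. No protein-coding gene lay in 9 of them, against 265 of all 2575 bins (10.3%). The highest, chr4:32000001-33000000, read 87.2% over 2156 reads and 91.8% over 4065 (89.5% ± 3.19). The others were chr1:191000001-192000000, chr1:189000001-190000000, chr4:29000001-30000000, chr13:62000001-63000000, chr5:26000001-27000000, chr1:194000001-195000000, chr3:103000001-104000000, chr4:131000001-132000000 and chr4:19000001-20000000. The exception with a gene was chr5:26000001-27000000, assigned CDH9, a cadherin of neurons, at 87.7% and 89.5%. Their CpG-dense CpGs were 86.9 to 94.1% and 88.4 to 94.9% methylated, as high as their CpG-sparse CpGs at 86.0 to 87.5% and 88.6 to 91.3%. In 50 kb windows the highest bin ran from 72.2% to 95.7% in replicate 1 and from 86.6% to 95.5% in replicate 2, with no low block. All 10 rest on 2105 to 2864 reads in replicate 1, where the 95% Wilson intervals of all 10 overlap.

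CpGs inside peaks, which the bin values do not use, were also more methylated in bins of high background (rho 0.47 and 0.46, a description). Over 2486 bins with at least 100 CpG reads in peaks in each replicate, a minimum chosen after the values were seen, the median in-peak methylation was 3.02% and 3.61%. In bins in the lowest quartile of background methylation in both replicates it was 2.13% and 2.84% (545 bins), and in those in the highest quartile 8.23% and 9.33% (494 bins), 8.78% ± 0.77 against 2.49% ± 0.50. In-peak methylation above 10% in both replicates was found in 43.3% of the highest and 0.734% of the lowest, against 11.4% of all these bins. In bins without a protein-coding gene the share was 62.7% (128 of 204). The depth in peaks differed too, with a median of 969 and 737 reads in the highest and 6789 and 9425 in the lowest, and its part in the difference was not tested.

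Extreme bins lay next to each other in places. The lowest twentieth held 129 bins in 114 runs, of which 12 had more than 1 bin, and the highest twentieth 129 bins in 96 runs, of which 25 did. The longest low runs had 3 bins each. One was the histone region at chr6:26000001-29000000, another chr10:99000001-102000000, with 40 protein-coding genes, of which NKX2-3 and PAX2 are on the list of developmental factors, at means of 36.4% and 48.2%. The third, chr2:72000001-75000000, holds 47, of which EMX1 is on that list, and had means of 43.7% and 55.4%. The longest high run had 5 bins, chr13:62000001-67000000, at means of 85.9% and 89.0%, with 3 protein-coding genes, PCDH9 among them, a protocadherin with a very long gene.

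Gene families were followed through 20 lists, each read over the kept bins that hold at least 1 member. As the background for all of them, 21.2% of the 2575 bins were in the lowest quartile in both replicates and 22.4% in the highest quartile in both. The lists touched 465 bins, 66 of them in more than 1 list, and bins hold other genes too, so a value belongs to the neighbourhood and not to the member alone. The medians of 19 of the 20 lists were below that of all bins in both replicates, the exception being the very long neuronal genes. With CpG-dense sequence left out, 18 were below, and the replicate mean of all bins went from 69.1% to 80.4%. ZNF bins went from 62.2% to 79.1%, developmental factors outside HOX from 54.3% to 75.6%, HOX bins from 36.0% to 65.9% and taste receptors from 65.6% to 76.3%. A list's bins hold at least 1 gene by construction, while 265 of the 2575 bins hold none. The read minimum also removed members of some lists. Kept bins held 305 of 388 olfactory receptor genes, 9 of 35 cornified envelope genes and 12 of 29 leukocyte receptor genes. Of the MHC region genes they held 3 of 19, in 1 of 5 bins, so that region is mostly missing here.

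HOX genes had all 5 of their bins in the lowest quartile in both replicates, with medians of 31.4% and 40.6% (36.0% ± 6.48). The HOXC genes were in 2 bins, at 39.7% and 48.0% and at 41.0% and 50.3%, the highest of the 5. Developmental transcription factors outside the HOX clusters (the PAX, NKX, TBX, LHX, SOX and related families) had 78 of 94 bins (83.0%) in the lowest quartile in both and 0 in the highest, with medians of 47.9% and 60.8%. Their bins were not rich in genes, with a median of 6 genes against 5 over all bins. The highest was that of TBX19, a pituitary factor, at 71.7% and 78.8%. Replication-dependent histones had 4 of 6 bins in the lowest quartile in both. The bin with H2AC1 and H2BC1, which are expressed in testis, was their highest at 72.2% and 79.6%.

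Among clustered families of tissue-restricted genes the picture was mixed. The pregnancy-specific glycoproteins and CEACAM adhesion proteins of chromosome 19 had 5 of 5 bins in the lowest quartile in both, from 52.0% to 55.5% in the replicate mean. Chromosome 19 is low as a whole, with medians of 53.9% and 62.2% over its bins, against 46.8% and 59.4% for this list. The clustered protocadherins, which give neurons their surface identity, had both their bins there, at 50.1% and 59.5% and at 51.6% and 64.9%. Zinc finger genes of the ZNF series had 78 of 177 bins (44.1%) there and 4 in the highest quartile. Olfactory receptors had 21 of 45 kept bins (46.7%) there, and only 45 of their 55 bins had passed the read minimum. Bins just under that minimum were highly methylated in general (82.9% and 87.5%), so the share may be too high. The kept bins spread from the end of chromosome 5 at 34.2% to a chromosome 11 bin with 30 receptors of the OR51, OR52 and OR56 families at 79.0%. Defensins, small antimicrobial peptides, ranged from 48.1% for DEFB110 and DEFB112 to 77.4% for DEFB113 and DEFB114 in the neighbouring bin. Keratin-associated proteins of hair had 1 of 7 bins in the lowest quartile and 1 in the highest, and a chromosome 21 bin with 32 of them read 82.6% and 87.3% in spite of holding 34 genes. The drug-metabolising UGT and CYP enzymes likewise ran from 44.7% for the bin of CYP4X1 and CYP4Z1 to 84.7% for the UGT2B bin.

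Housekeeping and pluripotency genes lay nearer the middle. Cytosolic ribosomal protein genes had 27 of 73 bins (37.0%) in the lowest quartile in both, with medians of 58.0% and 67.2%. Their highest bin, at 82.2% and 86.9%, holds RPL10L, a retrogene copy. Core pluripotency genes had 6 of 18 bins (33.3%) in the lowest quartile and 1 in the highest. The bin of OTX2, a factor of the epiblast and of the anterior brain, read 42.9% and 55.0%, and that of DPPA2 and DPPA4, germ-line and stem cell genes, 81.4% and 84.5%. Imprinted genes, where 1 parental copy is methylated at the control region, had 4 of 17 bins (23.5%) in the lowest quartile and 0 in the highest, with medians of 57.5% and 68.8%. The very long neuronal genes stood at the other end with 0 of 43 bins in the lowest quartile and 25 (58.1%) in the highest, from DPP10 at 64.9% to CDH18 at 88.1%, with medians of 76.5% and 83.5% and a median of 1 gene per bin. The quintile of bins with 0 or 1 gene was as high, at 78.8% and 84.9%. With a minimum of 5000 reads per bin the list had 73.2% in the replicate mean, against 63.0% for all bins.

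**Figure D5:**
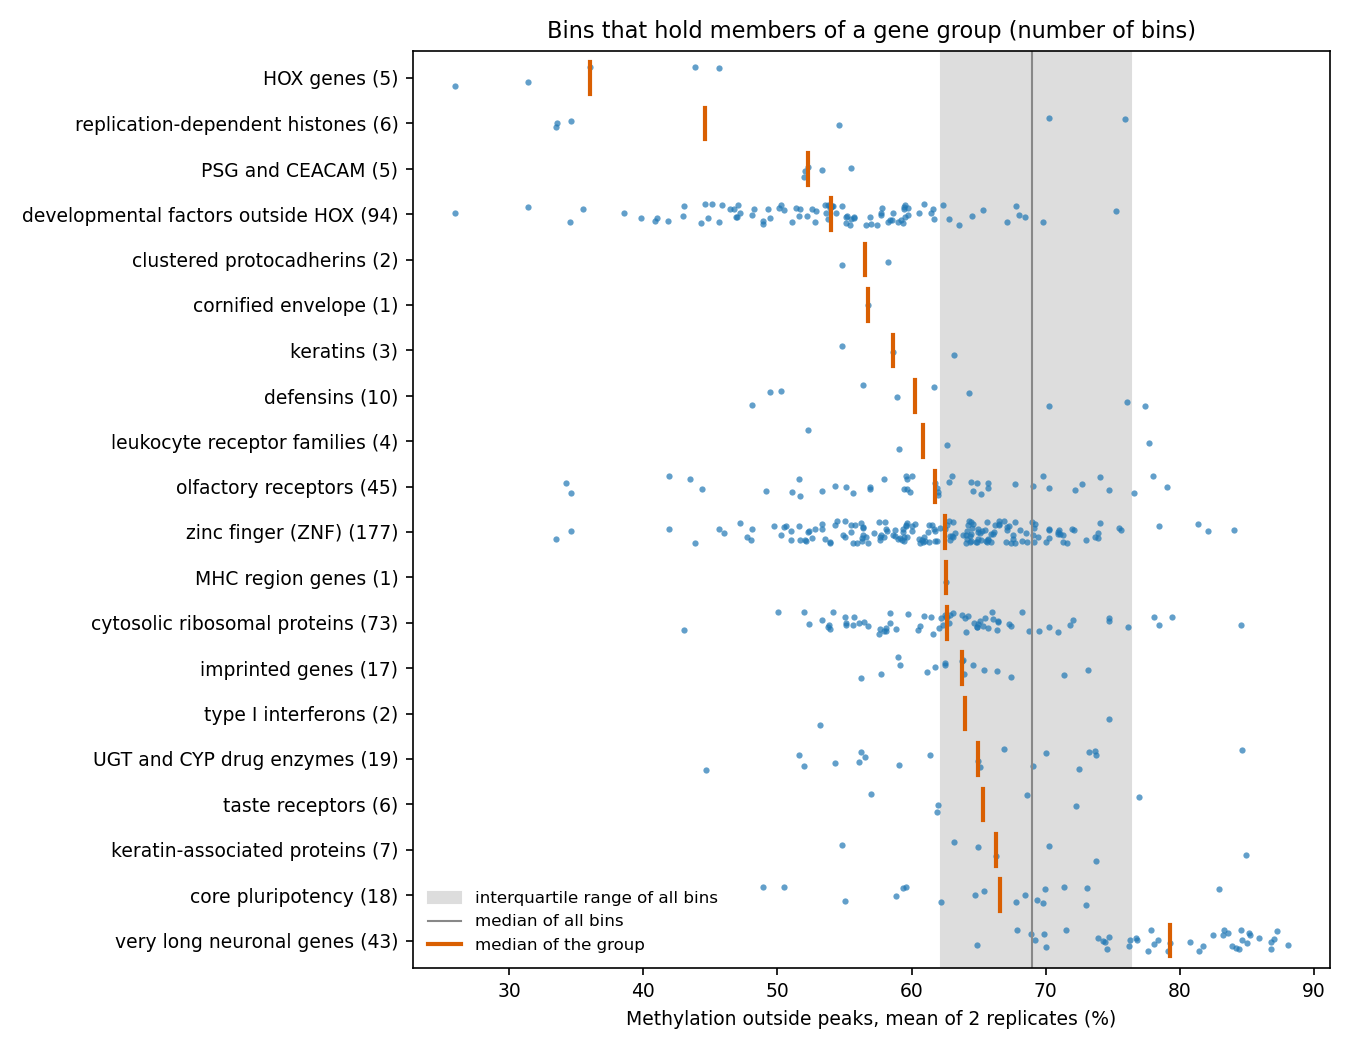
Methylation outside peaks in percent, mean of 2 replicates (x), of each kept bin (point) that holds a member of a gene list (y, number of bins in brackets), with the median of each list in orange. Grey marks the interquartile range and the median of all 2575 bins; the HOX bins lie to the left of the grey band and most bins of very long neuronal genes to the right of the median line.

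Further bins are named here after their values were seen, for their levels without CpG-dense sequence or without the surroundings of peaks. At CpG-sparse CpGs alone the lowest were the 2 histone and tRNA bins of chromosome 6, followed by chr5:98000001-99000000 with CHD1, a chromatin remodeller, and RGMB, at 52.5% and 63.6%. In that bin 10 CpGs held 22.2% and 18.3% of the reads, so that few positions weigh heavily. The bins of MEF2C (59.4% and 70.9% at CpG-sparse CpGs) and of ZIC1 and ZIC4 (60.9% and 70.2%) were also among the 8 lowest, against medians of 77.4% and 83.6%. At least 5000 bp from peaks the lowest were those of HOXD, HOXA and HOXB. The next were 2 bins of chromosome 1 with duplicated NBPF and NOTCH2NL genes, chr1:149000001-150000000 at 30.1% and 43.2% and chr1:120000001-121000000 at 28.3% and 46.7%. The HOXC bin chr12:54000001-55000000 followed at 38.2% and 46.4%, against 79.7% and 85.04% for the median bin. The list of tRNA genes was also added after the values were seen: 53 of 103 bins (51.5%) with a tRNA gene were in the lowest quartile in both replicates. The bin with the most reads, chr19:1000001-2000000 with TCF3, SBNO2 and CSNK1G2, held 40673 CpGs and read 52.2% over 28515 reads and 59.0% over 100377.

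The difference between replicates ran from 3.72 points at the 5th percentile of bins to 15.8 at the 95th, around its median of 9.43. The bins furthest from that median are given here. Replicate 2 was relatively highest in chr5:44000001-45000000 with FGF10, a growth factor of limb and lung buds, and MRPS30, at 58.1% against 79.5%. The next were chr10:23000001-24000000 with KIAA1217, ARMC3 and MSRB2 (32.7% against 53.7%) and chr9:74000001-75000000 with RORB and TRPM6 (52.9% against 73.8%). In the FGF10 bin, CpG-dense CpGs took 26.9% of the reads in replicate 1 and 13.3% in replicate 2, and were 12.5% and 49.2% methylated. Among the bins in which replicate 2 was relatively lowest were chr13:82000001-83000000 (88.3% against 87.7%) and chr4:126000001-127000000 (87.6% in both), which hold no protein-coding gene. Both lie in the highest quartile, where the median shift was only 5.46 points, so taking off 9.43 places such bins low.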

How the data were processed

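Each of 2 H9 ATAC-Me libraries has a deposited table of CpGs with a methylation fraction and a count of covering reads, and the authors deposited 1 narrowPeak list for the group. The submitters' processing notes name the tools Trim Galore and Genrich and the build hg38 (GRCh38). For the mapper, the methylation caller and duplicate handling, the name or setting is not given in the sources used here. The deposited peak score, signal and −log10 values were not used; only peak positions were.

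Methylated reads were fraction times count, whole within 0.001 in 100% of CpGs. Positions count from 0: all 28241 checked against RefSeq promoters were CG. Autosomal CpG reads totalled 28475863 and 51406146, of which 14410301 and 32843978 lay outside peaks. Reads at CpGs flagged as altered (0.663% and 0.754%) were kept. A read covering several CpGs counts at each, so Wilson intervals (95%) are too narrow; unconverted cytosines would count as methylated.

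Genes came from RefSeq (GRCh38.p14), protein-coding, placed by midpoint; rows listed after a chromosome's sorted rows, taken as alternate or unplaced sequences, were left out, leaving 18973. Peaks were placed by summit. Values are means with the SD over 2 replicates. The members and gene lists were chosen with earlier results of these data known. Named bins are the 10 lowest and 10 highest by replicate mean, the 3 with the largest replicate difference each way, and the longest runs (1 bin of the replicate difference is not reported here); named genes are those with the longest overlap (up to 4) and list members. The scripts (Python 3.11.15, numpy 2.4.6, pandas 2.3.3, scipy 1.17.1) were tested on simulated data. The alternatives tried are given in the closing section.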

Additional observations from a re-analysis of the deposited data

How the results depend on the processing

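With 2 replicates of 1 group, no alternative has a test, and a value counts as moved when it shifts by at least the SD between replicates. A change of sign was labelled apart, as reversed. The rho between replicates and the number of lists have no such SD and were judged by fixed limits. No paired analysis was possible because the series has 1 group. Values are in percentage points, given for gene, CpG and peak density (highest minus lowest quintile) in that order. A minimum of 5000 reads per bin (1156 bins) gave -7.50, 0.95 (opposite signs in the replicates) and -5.05, a spread of 26.5, chromosome ends 1.92 and a rho with CpG density of 0.014. Weighting covered CpGs equally gave -11.5, -11.1 and -11.7, a median bin of 78.8%, a spread of 20.8 and gene bodies -4.25. CpGs at least 5000 bp from peaks gave -9.12, -9.25 and -8.01, a median of 82.2%, a spread of 23.4, bodies 1.43 and ends -5.22. Leaving out CpG-dense sequence gave -4.54, -3.26 and -4.77, a median of 80.4%, a spread of 11.3 and bodies 1.17. It also gave ends 0.29 (opposite signs in the replicates) and a rho between replicates of 0.85. CpGs with at least 3 reads gave -4.51, 2.40 and -0.023, a median of 45.2%, bodies -10.1, ends 2.75, a rho with CpG density of 0.10 and one between replicates of 0.88. CpGs with at most 5 reads gave -14.1, -13.4 and -14.4, a spread of 25.2 and bodies -5.62. Bins counted from position 500000 moved the ends (-2.49) and the bin of the cornified envelope list (49.6%), and gene density as the share of the bin in gene bodies gave -13.6 and a rho of -0.31. An alternative chosen after seeing the data, CpG-sparse CpGs at least 5000 bp from peaks, gave -1.49, -1.56 and -1.65. With it the median was 83.5%, the spread 8.60, bodies 2.31, ends -0.17 (opposite signs in the replicates) and the rho between replicates 0.80. Without 1 of the replicates the values ran from -22.3 to -18.3, -20.4 to -18.1 and -22.1 to -18.6, with a median of 63.8% to 74.4%, a spread of 30.1 to 37.7, bodies -9.24 to -6.64 and ends -4.77 to -2.96. The number of lists with a median below that of all bins was 19 of 20, and 14 to 19 under the alternatives run. Lists without a kept bin under an alternative were not counted there. Weighting covered CpGs equally moved the values of all 20 lists, and so did counting CpGs with at least 3 reads. Leaving out CpG-dense sequence moved 19 and left 1 the same. With equal weighting the 10 lowest bins rose to 37.9% to 53.4% in the replicate mean, from 25.9% to 36.0%. With CpGs of at least 3 reads, 9 of these bins were kept and fell to 13.1% to 23.5%. The median over all bins moved in the same direction each time. Values of single named bins were not recomputed with shifted bins, whose borders differ. All 10 highest bins and, among the 10 lowest, chr9:62000001-63000000 lie near the minimum of reads, which limits their precision.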
